A study of Rattus norvegicus with 23 samples.

Results

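The effect of maternal diabetes on the newborn rat heart was examined on the background of a maternal high-fat (HF) diet. The comparison set 5 combination exposed hearts, from dams given both diabetes and HF diet, against 5 HF diet exposed hearts. These 10 hearts were chosen by their exposure labels alone from 23 arrays, which also held 7 control and 6 diabetes exposed hearts. All hearts were taken whole on postnatal day 1 (P1). The rats were Sprague Dawley, and the study mixed male and female hearts in each group. Sex of the single hearts was not part of any fit, so its part in the differences was not tested. Dams of both groups had eaten HF diet for a minimum of 28 days when they were mated and stayed on it until delivery. On gestational day 14 the combination dams received 65 mg/kg of streptozotocin, which destroys the beta cells of the pancreas. The HF diet dams received citrate buffer alone. Insulin was given to the diabetic dams to hold glucose between 200 and 400 mg/dl, so the exposure is partly treated, late gestational diabetes. Delivery was on gestational day 22.

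The newborn heart is moving from glucose and lactate, the main fuels before birth, to fatty acids, and this shift needs more mitochondria. Mitochondria carry their own ribosomes, which make core subunits of the respiratory chain, while nearly all other mitochondrial proteins are imported. Maternal diabetes is known for thickened ventricular walls and poor relaxation in the offspring heart.

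Values are log2 signals centred so that each probe set has a median of 0 over the 23 arrays, and a level here is therefore a distance from that median. A gene was called higher or lower when it differed by more than the fold limit of the study, 0.32 on the log2 scale, at an unadjusted p under 0.05, in limma with all 23 hearts. In total 1679 of 29170 probe sets (5.76%) passed, 828 (2.84%) higher and 851 (2.92%) lower in combination exposed hearts. No probe set passed limma's Benjamini-Hochberg adjustment (lowest adjusted p = 0.1098), while 3893 had an unadjusted p under 0.05. The methods' t-test also gave 0 adjusted calls, with 2202 at an unadjusted p under 0.05. Every gene named as higher or lower below is thus called at the unadjusted limit only. Among 14506 genes with a probe set of their own, 495 (3.41%) were higher and 307 (2.12%) lower. In 56 of the higher (0.386% of genes) and 57 of the lower (0.393%) the 5 hearts of one group did not overlap the 5 of the other.

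The arrays were not equally wide. The SD over all probe sets was 0.393, 0.309 and 0.260 in combination hearts 1, 2 and 3, but 0.164 and 0.161 in hearts 4 and 5. HF diet hearts lay between 0.162 and 0.300, with heart 3 the widest. Sample codes put combination hearts 1 and 2 under one stem, hearts 4 and 5 under another, and HF diet hearts 3, 4 and 5 under a further one. The sources used here do not say whether a stem stands for a dam, and no stem held both groups, with 3 stems in each. With stem as a random block 1376 probe sets passed, and with the hearts of 1 stem averaged 1453 passed. In limma 0 adjusted p-values were under 0.05 in either fit, while 2789 and 2228 unadjusted ones were. Without combination heart 1 the calls fell from 1679 to 576, and without HF diet heart 3 to 1112. Without combination heart 4 they rose to 2995.

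Among named genes whose hearts did not overlap, Kcne1 and Edn1 had the largest differences on the higher side. Kcne1, the accessory subunit of the slow delayed rectifier potassium channel, read 1.66, 1.18, 1.76, 0.08 and 0.01 in the 5 combination exposed hearts and -0.07, -0.04, -0.27, -0.35 and -0.12 in the 5 HF diet exposed hearts. The groups did not overlap, but hearts 4 and 5 lay just above the HF diet range. The log2 difference was 1.11 ± 0.34 (SE), a 2.15-fold change (limma adjusted p = 0.368).

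Edn1, the precursor of the vasoconstrictor endothelin-1, read 0.99, 0.21, 1.10, 0.46 and 0.41 with combination exposure and 0.00, -0.06, -0.64, -0.04 and -0.27 with HF diet. All 5 combination hearts were above all 5 HF diet hearts, and the difference was 0.84 ± 0.27. Adm, the precursor of the vasodilator adrenomedullin, read 0.61, 0.52, 0.03, -0.06 and 0.01 against -0.30, -0.20, -0.83, -0.22 and -0.09. The difference was 0.55 ± 0.16, and the lowest HF diet value came from the widest array of that group. Stc1, the secreted hormone stanniocalcin 1, was higher by 0.72 ± 0.27. Of 24 measured genes of hypertrophy, stress and vasoactive signaling, 5 (20.8%) were higher and 0 lower, beside 3.41% and 2.12% of all genes. Their median difference was 0.17. The count was 3 without combination heart 1, combination heart 2 or HF diet heart 3, with 1 lower gene in the second of these, and without combination heart 3 the median fell to 0.0027.

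Mcee, the methylmalonyl-CoA epimerase of propionate catabolism, read 1.15, 0.69, 0.29, 0.02 and 0.18 in combination hearts and -0.18, -0.05, -0.35, -0.06 and -0.15 in HF diet hearts. The groups did not overlap, with a difference of 0.63 ± 0.17. The other non-overlapping genes among the 15 largest increases included Sctr, the secretin receptor (0.83 ± 0.24), Depp1 (0.78 ± 0.27), Nmu, the precursor of neuromedin U (0.61 ± 0.16), and Pam16, a part of the motor that pulls proteins into mitochondria (0.64 ± 0.23). Myl1, a myosin light chain of fast skeletal muscle, was higher by 0.59 ± 0.19.

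On the lower side the largest difference among named genes whose hearts did not overlap was that of Meg3, a long noncoding RNA made from the maternal copy of an imprinted locus. Meg3 read -0.73, -0.51, -0.31, -0.20 and -0.32 in combination exposed hearts and 0.39, 0.08, 0.40, 0.63 and 0.38 in HF diet exposed hearts. No heart overlapped, and combination hearts 4 and 5 were below every HF diet heart too. The difference was -0.79 ± 0.26, a 0.58-fold level, and was between -0.86 and -0.71 when any 1 of the 10 hearts was left out.

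Fgfr2, a receptor for fibroblast growth factors, read -0.74, -0.45, -0.33, -0.24 and -0.15 against 0.12, 0.03, 0.10, 0.24 and 0.41. The difference was -0.56 ± 0.15, again with no overlap. Per2, a repressor in the circadian clock, read -0.76, -0.45, -0.08, -0.08 and -0.35 against 0.34, 0.20, 0.25, 0.37 and 0.00, a difference of -0.57 ± 0.17. It was the single member called among 17 clock genes (5.88%), beside 2.12% of all genes called lower. Notch2, a receptor of the Notch pathway, read -0.61, -0.40, -0.06, -0.11 and -0.11 against 0.20, 0.00, 0.32, 0.44 and 0.41, a difference of -0.53 ± 0.18.

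Cpne5, a calcium-dependent membrane-binding protein, was even over the hearts of its group, at -0.58, -0.39, -0.30, -0.30 and -0.37 with combination exposure. The HF diet hearts read 0.10, 0.06, 0.47, -0.05 and 0.03, and the difference was -0.51 ± 0.12. Fras1, an extracellular matrix protein, was lower (-0.64 ± 0.25). Spaca6 was lower in each of its 3 probe sets, with differences from -0.89 to -0.67, and the hearts of the probe set at -0.89 overlapped. Leng8 had 2 probe sets at -0.65 and -0.68, and its hearts did not overlap in the second.

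The 30 genes with the largest non-overlapping differences were picked by these same values, so kept calls among them are no measure of stability. Of the 30, 26 kept their call whichever 1 of the 10 hearts was left out. The 4 that did not were Capn6 (-0.41), Fras1 (-0.46), Mtfp1 (0.49) and Tpmt (0.41), each lost without combination heart 1. Combination heart 1 held the most extreme value of its group in 26 of the 30. With the widest array of each group left out, 18 of the 30 were still called.

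**Figure D1:**
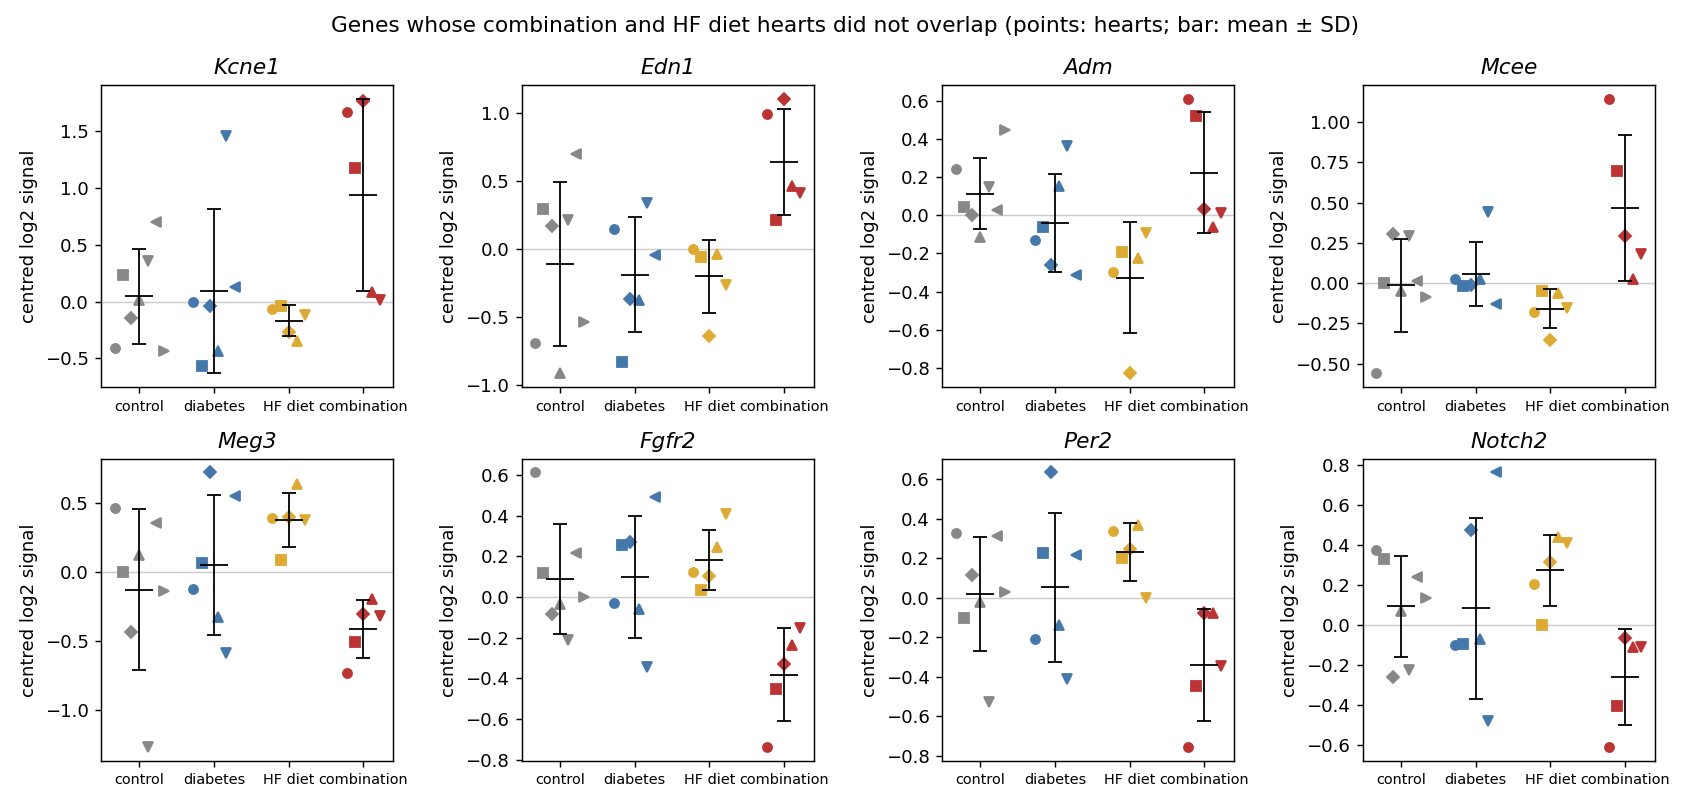
Centred log2 signal of 8 genes in each heart of the control, diabetes, HF diet and combination groups; each point is a heart, marker shape gives its number, and the bar is the group mean ± SD. The 5 combination hearts lie above the 5 HF diet hearts for Kcne1, Edn1, Adm and Mcee and below them for Meg3, Fgfr2, Per2 and Notch2, and Kcne1 hearts 4 and 5 read 0.08 and 0.01.

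Whether diabetes acted differently on the 2 diets was tested by setting the combination minus HF diet difference against the diabetes minus control difference. No probe set passed adjustment (lowest limma adjusted p = 0.3581), and 1896 had an unadjusted p under 0.05. The same 30 genes were picked for large differences on HF diet, so smaller ones on control diet follow partly from the choice. Among them no diabetes minus control difference was larger than 0.23 in size, and 16 had the sign seen on HF diet. For Meg3 the diabetes minus control difference was 0.18 and the difference between diets -0.97 ± 0.34 (limma adjusted p = 0.672). For Adm these were -0.15 and 0.70 ± 0.21, and for Kcne1 0.04 and 1.06 ± 0.46, both at the same adjusted p. Of the 30, 21 had an unadjusted limma p under 0.05 for the difference between diets, and none passed adjustment. That count rests on the same hearts and values by which the genes were picked. A change particular to HF diet was therefore not shown for any of the 30.

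The array also carries probe sets for microRNA genes. They are unnamed in the array annotation and were named here through the study's lists of changed probe sets, so 21 were matched because they had passed in some comparison of these hearts. Their values are given as a description, with no test. Such probe sets read the gene or its precursor, not the mature microRNA. Of 8 in the cluster beside Meg3, 6 were listed for combination against HF diet itself and the other two for HF diet against control, which shares the HF diet hearts. All 8 had lower means with combination exposure, by log2 differences of -0.86 to -0.45. Control means lay between -0.22 and -0.001, HF diet means between 0.17 and 0.56 and combination means between -0.35 and -0.07.

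The mature strands of the 4 with the largest differences are shown because they are the products of these precursors, from RefSeq on GRCr8, 5′ to 3′, with the seed (bases 2 to 8, which pair with targets) in capitals. They lie on the plus strand of chromosome 6, at chr6:134314744-134314765 for miR-493-5p, chr6:134546245-134546266 for miR-380-5p, chr6:134563606-134563627 for miR-539-5p and chr6:134569956-134569977 for miR-382-5p.
rno-miR-539-5p: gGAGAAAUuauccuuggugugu
rno-miR-539-3p: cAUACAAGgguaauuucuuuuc
rno-miR-380-5p: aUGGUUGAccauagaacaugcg
rno-miR-380-3p: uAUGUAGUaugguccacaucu
rno-miR-382-5p: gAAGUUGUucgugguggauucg
rno-miR-382-3p: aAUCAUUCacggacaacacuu
rno-miR-493-5p: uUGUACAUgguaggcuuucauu
rno-miR-493-3p: uGAAGGUCuacugugugccag
No seed was shared among these strands.

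Mir539 read -0.51, -0.58, -0.09, -0.48 and 0.08 in combination hearts and 0.43, 0.46, 0.40, 1.20 and 0.23 in HF diet hearts, without overlap. Mir380 read 0.20, -0.44, -0.66, -0.54 and -0.20 against -0.22, 0.02, 0.88, 1.00 and 0.88, and these groups overlapped. Mir382 read 0.01, -1.05, 0.03, -0.73 and -0.03 against -0.02, 0.12, 0.30, 0.89 and 0.90. In the last pair the high values came from HF diet hearts 4 and 5 and the low ones from combination hearts 2 and 4, so the order of hearts was not that of Meg3. Dlk1, the paternally expressed growth regulator of the locus, differed by -0.18 ± 0.22, Dio3 by -0.03 ± 0.06 and Begain by -0.01 ± 0.07, none past the limit.

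**Figure D2:**
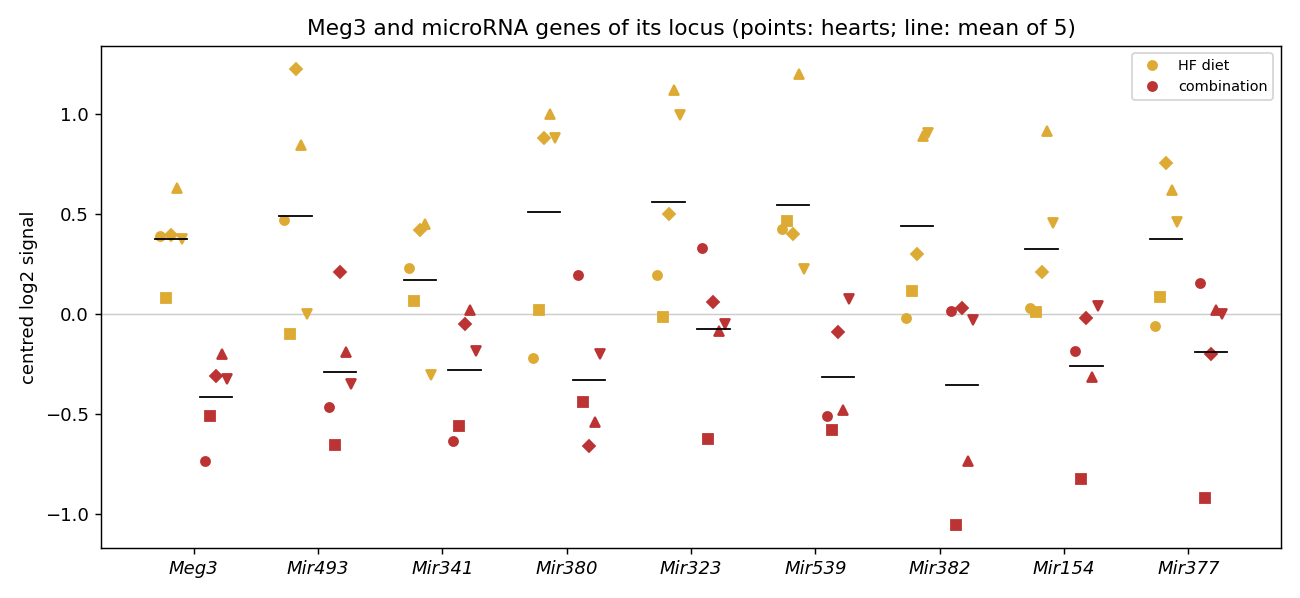
Centred log2 signal of Meg3 and 8 microRNA genes of its locus in the 5 HF diet and 5 combination hearts; each point is a heart and each line the mean of 5. Groups do not overlap for Meg3 and Mir539 and overlap for the other microRNA genes, whose mean differences run down to -0.84.

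Mir23b (-0.99) and Mir27b (-1.01), from 1 cluster on chromosome 17, had the largest differences of the 13 named microRNA genes elsewhere. Combination heart 2 alone read -2.46 for Mir27b and -1.63 for Mir23b. Mir15b and Mir16, from 1 cluster on chromosome 2, carry mature strands with the same seed and differed by -0.63 and -0.47. Groups overlapped for both, and Mir15b was not past the limit. Combination heart 2 read -1.52 and -1.15, and without it the differences were -0.31 and -0.24.
rno-miR-15b-5p: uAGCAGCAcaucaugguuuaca
rno-miR-16-5p: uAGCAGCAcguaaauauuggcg
Genes that make and use microRNAs were also measured. Of 11, none was higher and 3 (27.3%) were lower, beside 2.12% of all genes. Lower were Tnrc6b, a scaffold of the silencing complex (-0.69 ± 0.21), and Dicer1, which cuts precursors (-0.38 ± 0.12). Dgcr8, which helps to cut primary transcripts, was lower too (-0.42 ± 0.16).

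Many genes of mitochondrial protein synthesis were higher. Of 69 measured proteins of the mitochondrial ribosome, 23 (33.3%) were higher and 0 lower, beside 3.41% of all genes, and 68 had a positive difference. Their median difference was 0.29, beside 0.0004 over all genes. Mrps35 (0.49 ± 0.12), Mrpl40 (0.46 ± 0.14), Mrps18b (0.62 ± 0.20) and Mrpl41 (0.51 ± 0.16) had the smallest p-values. The mean of the 69 in each heart was 0.66, 0.30, 0.13, 0.00 and 0.14 with combination exposure and -0.14, 0.02, -0.15, -0.06 and 0.07 with HF diet. Heart 1 was far above the others, and heart 4 lay within the HF diet range. Without combination heart 1, 4 of the 69 were called and the median was 0.18. The count was 14 without combination heart 2 or HF diet heart 1 and 37 without combination heart 4. Without the widest array of each group none was called and the median was 0.17.

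Mrpl19, Mrps27 and Dap3, mitochondrial ribosome proteins that the study followed further, differed by 0.40 ± 0.18, 0.34 ± 0.16 and 0.25 ± 0.10. The first 2 passed the limit and Dap3 did not reach the fold limit. Mrpl19 lost its call in 5 of the 10 fits that left out a heart, with differences from 0.30 to 0.37, and Mrps27 in 7, with differences from 0.24 to 0.36. Ppargc1a, a coactivator of mitochondrial biogenesis, differed by -0.19 ± 0.13 and its groups overlapped. The difference was -0.09 without combination heart 1, the lowest of its group, and -0.11 without HF diet heart 4. Its paralog Ppargc1b was lower (-0.66 ± 0.21).

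Of 33 complex I subunits 7 (21.2%) were higher and 0 lower, beside 3.41% and 2.12% of all genes. Their median difference was 0.22 and all 33 were positive. Ndufa2 (0.47 ± 0.15) and Ndufb8 (0.36 ± 0.13) led. The count was 1 without combination heart 1, 11 without HF diet heart 2 and 13 without combination heart 4. Of 41 subunits of complexes II to V 2 (4.88%) were higher, near the share of all genes, and 0 lower, with a median of 0.12. Leaving out 1 heart gave counts from 1 (combination heart 1) to 6 (combination heart 4 or HF diet heart 5). Of 30 protein import genes 7 (23.3%) were higher, among them Chchd4 of the intermembrane space (0.43 ± 0.14). Tomm5 of the outer membrane pore was lower (-0.34 ± 0.10). A single import gene was higher, and none lower, when combination heart 1 was left out, and the median went from 0.23 to 0.15. The higher count was 4 without combination heart 2 or HF diet heart 1.

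Promoters, taken as 250 bases before and 50 after each start site, were searched on both strands for the consensus of NRF1, a regulator of nuclear genes for mitochondria. It was present in 9 of 55 mitochondrial ribosome promoters (16.4%), in 6 of 31 complex I promoters (19.4%), in 883 of 11951 measured genes (7.39%) and in 4.71% of all 27457 promoters in RefSeq. The share was 9.47% of all genes called higher, 8.06% of those called lower, 10.2% of the cytosolic ribosome and 9.52% of the long chromatin regulators described below. NRF1 was 1 of 5 consensus motifs searched, beside those of ATF4 and estrogen-related receptors, the E-box and the cAMP response element. In mitochondrial ribosome promoters the E-box was in 10.9% and the cAMP response element in 1.82%, beside 7.88% and 2.46% of measured genes. Those of ATF4 and estrogen-related receptors were in 0 of the 55. NRF1 matches also lay in members not called, such as Mrpl17 and Mrpl44. The stretches below come from 2 called members and show the match in capitals, both on the plus strand of GRCr8, at chr20:2842976-2843005 and chr17:55260579-55260608.
Mrps18b: tccttgtccgGCGCATGCGCagtcgttctt
Mrpl32: tttgacctgtGCGCATGCGCagggaacctg
A match is a description of the letters and not of binding.

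Enzymes of catabolism and of defence against oxidants were examined next. Of 24 genes of ketone body or branched-chain amino acid breakdown 5 (20.8%) were higher and 0 lower, beside 3.41% and 2.12% of all genes. Their median was 0.22. Without combination heart 1 the count was 1 and the median 0.12. It was 2 without HF diet heart 1, 3 without combination heart 2 or HF diet heart 5, and 9 without combination heart 4. Bdh1, which interconverts the 2 main ketone bodies, lay between 1.40 and 1.56 in combination hearts 1 to 3 and read 0.03 and 0.09 in hearts 4 and 5, against -0.71, -0.51, 0.12, 0.56 and 0.00 with HF diet. Combination hearts 1 to 3 were above every HF diet heart while hearts 4 and 5 lay among them, and the difference was 1.02 ± 0.40. Bckdhb, a subunit of the branched-chain keto acid dehydrogenase, differed by 0.40 ± 0.13. A further list held 37 genes of fatty acid oxidation and targets of peroxisome proliferator-activated receptors. Of these 37 genes 2 (5.41%) were higher and 1 (2.70%) lower, beside 3.41% and 2.12% of all genes. Their median was 0.10. Leaving out 1 heart at a time gave from 0 higher (HF diet heart 1 or 5) to 7 higher (HF diet heart 2), and 1 lower each time except for 3 lower without combination heart 4. The median lay between -0.01 and 0.17 over 14 of the 23 alternatives.

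Of 42 antioxidant, quinone and glutathione enzymes 10 (23.8%) were higher, beside 3.41% of all genes, and 0 lower, with a median of 0.21. They included Prdx5, a mitochondrial peroxiredoxin (0.60 ± 0.18), Gstk1 (0.62 ± 0.21) and Blvrb, biliverdin reductase B (0.70 ± 0.23), which is also abundant in red cells. The count was 4 without combination heart 1 and 5 without HF diet heart 3. Of 37 genes of the unfolded protein and integrated stress responses 9 (24.3%) were higher and 0 lower. Asns, asparagine synthetase, read 0.72, 1.26, 0.24, -0.14 and 0.00 against -0.38, 0.01, -1.002, -0.13 and -0.05. These overlapped, with HF diet heart 3 the lowest, and the difference was 0.73 ± 0.23. The count was 1 when combination heart 1 was left out. Of 25 hypoxia response genes 6 (24%) were higher and 0 lower, with a median of 0.34. The count was 2 without combination heart 2, 3 without the widest array of each group and 4 without combination heart 1.

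Some blood cell markers were higher as well. Of 24 erythroid markers 5 (20.8%) were higher and 0 lower, beside 3.41% and 2.12% of all genes. Without combination heart 2, 1 was higher and 1 lower, and the higher count was 2 without HF diet heart 3, 3 without combination heart 1 or 3 or HF diet heart 2, and 9 without combination heart 5. Their mean read 0.19, 0.88, 0.28, -0.08 and -0.26 in combination hearts and -0.03, -0.17, -0.19, -0.04 and 0.08 in HF diet hearts. Ahsp, the chaperone of alpha globin, differed by 1.22 ± 0.46. Of 37 markers of macrophages and other leukocytes 5 (13.5%) were higher, Lyz2 most (0.90 ± 0.40). The count was 2 without combination heart 1 or HF diet heart 3, 3 without combination heart 2 or 3 or HF diet heart 1, and 9 without combination heart 4. With the erythroid mean as a covariate 7 mitochondrial ribosome genes, 4 antioxidant enzymes, 2 hypoxia response genes and 3 stress response genes were called higher. On the lower side 8 chromatin regulators, 2 giant sarcomere and cytoskeleton genes and 2 splicing genes, 3 lists given below, were called with it, and 617 probe sets in all. The part of blood cells in these results was not tested further. In whole hearts, fewer cells of a type and less RNA per cell cannot be told apart. Cardiomyocyte markers gave 0 higher and 1 lower of 21 (4.76% lower), with a median of -0.05.

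**Figure D3:**
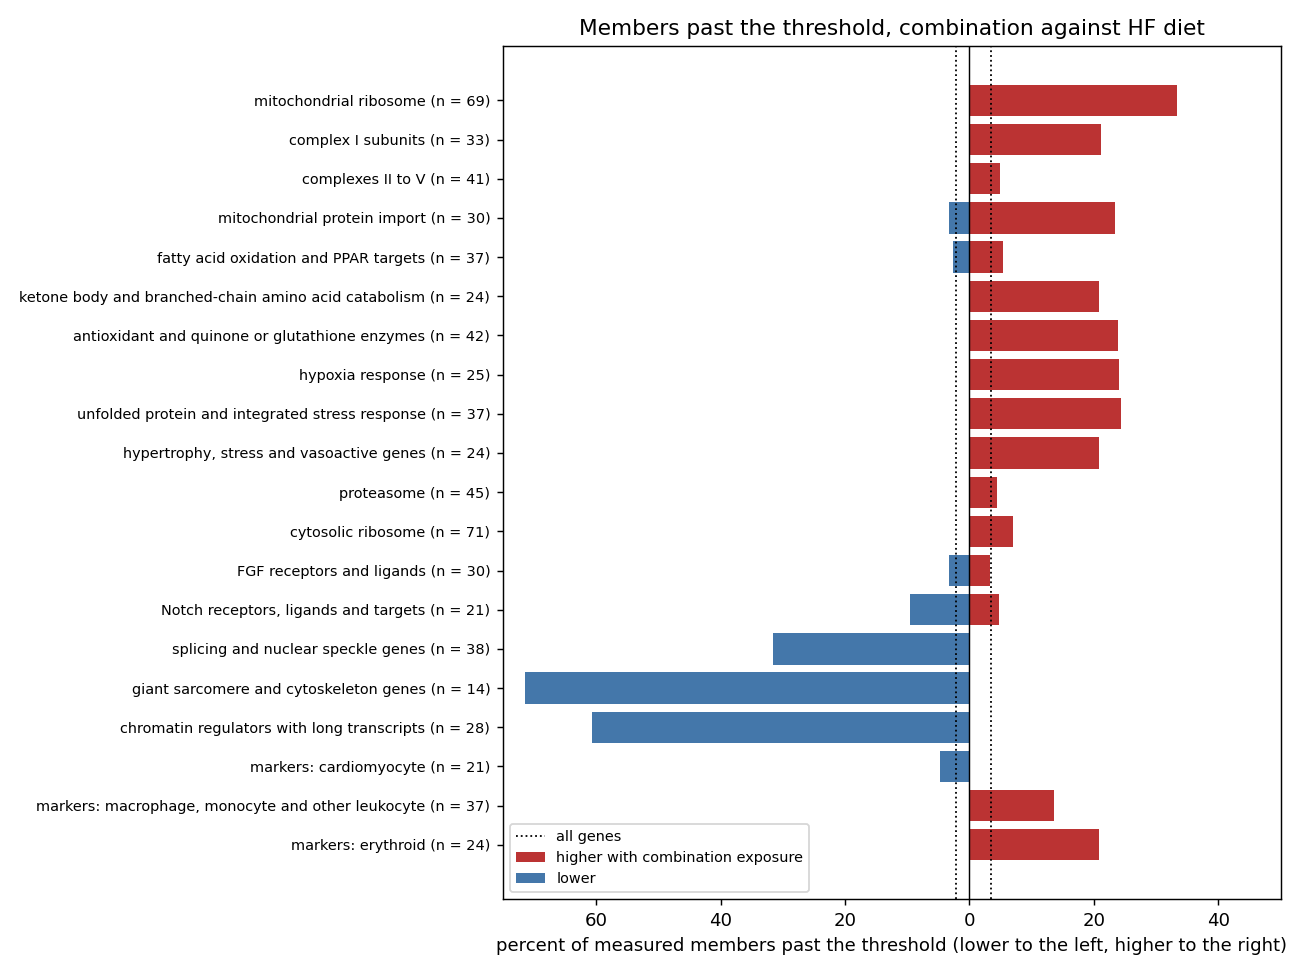
Percent of measured members of 20 gene lists called higher (right) or lower (left) in combination against HF diet hearts; dotted lines mark 3.41% and 2.12%, the shares over all genes. Mitochondrial ribosome genes reach 33.3% on the higher side, and long chromatin regulators 60.7% on the lower side. The lists were drawn up with earlier results of these data known.

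Large regulators and structural proteins were among the lower genes. Of 28 chromatin regulators with long transcripts 17 (60.7%) were lower and 0 higher, with a median of -0.37. The share called lower was 2.12% of all genes and 9.23% of genes spanning over 160 kb. This list, like the others, was drawn up with earlier results of these data known. Rere (-0.44 ± 0.13), Hcfc1 (-0.42 ± 0.13), Baz2b (-0.49 ± 0.16) and Chd3 (-0.50 ± 0.17) had the smallest p-values. The mean of the 28 read -0.71, -0.26, -0.27, -0.02 and -0.14 in combination hearts and 0.17, -0.02, 0.21, -0.07 and 0.08 in HF diet hearts. Heart 1 was again the most distant and heart 4 lay within the HF diet range. Without combination heart 1, 3 of the 28 were called and the median was -0.26, and 11 were called without HF diet heart 1.

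Of 14 giant sarcomere and cytoskeleton genes 10 (71.4%) were lower, beside 2.12% of all genes and 9.23% of genes spanning over 160 kb. Among them were Syne2, which ties the nucleus to the cytoskeleton (-0.50 ± 0.14), and Flna, an actin crosslinker (-0.35 ± 0.11). Ank2, a membrane adaptor, was lower too (-0.36 ± 0.13). The count was 1 without combination heart 1, 4 without HF diet heart 1 and 3 without HF diet heart 3. Of 38 splicing and nuclear speckle genes 12 (31.6%) were lower, including Safb (-0.37 ± 0.11) and Sfswap (-0.44 ± 0.15). The count was 6 without combination heart 1, 7 without combination heart 2 or 3 and 4 without HF diet heart 3. Of 40 ion channel and calcium cycling genes 2 were higher and 4 lower, beside 3.41% and 2.12% of all genes, with a median of -0.12. These counts became 2 and 1 when combination heart 1 was left out, and 3 and 7 when heart 4 or heart 5 of that group was. Kcne3 was higher (0.74 ± 0.27) while Cacna1c, the pore of the L-type calcium channel (-0.48 ± 0.19), and Ryr2, the calcium release channel (-0.45 ± 0.20), were lower.

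**Figure D4:**
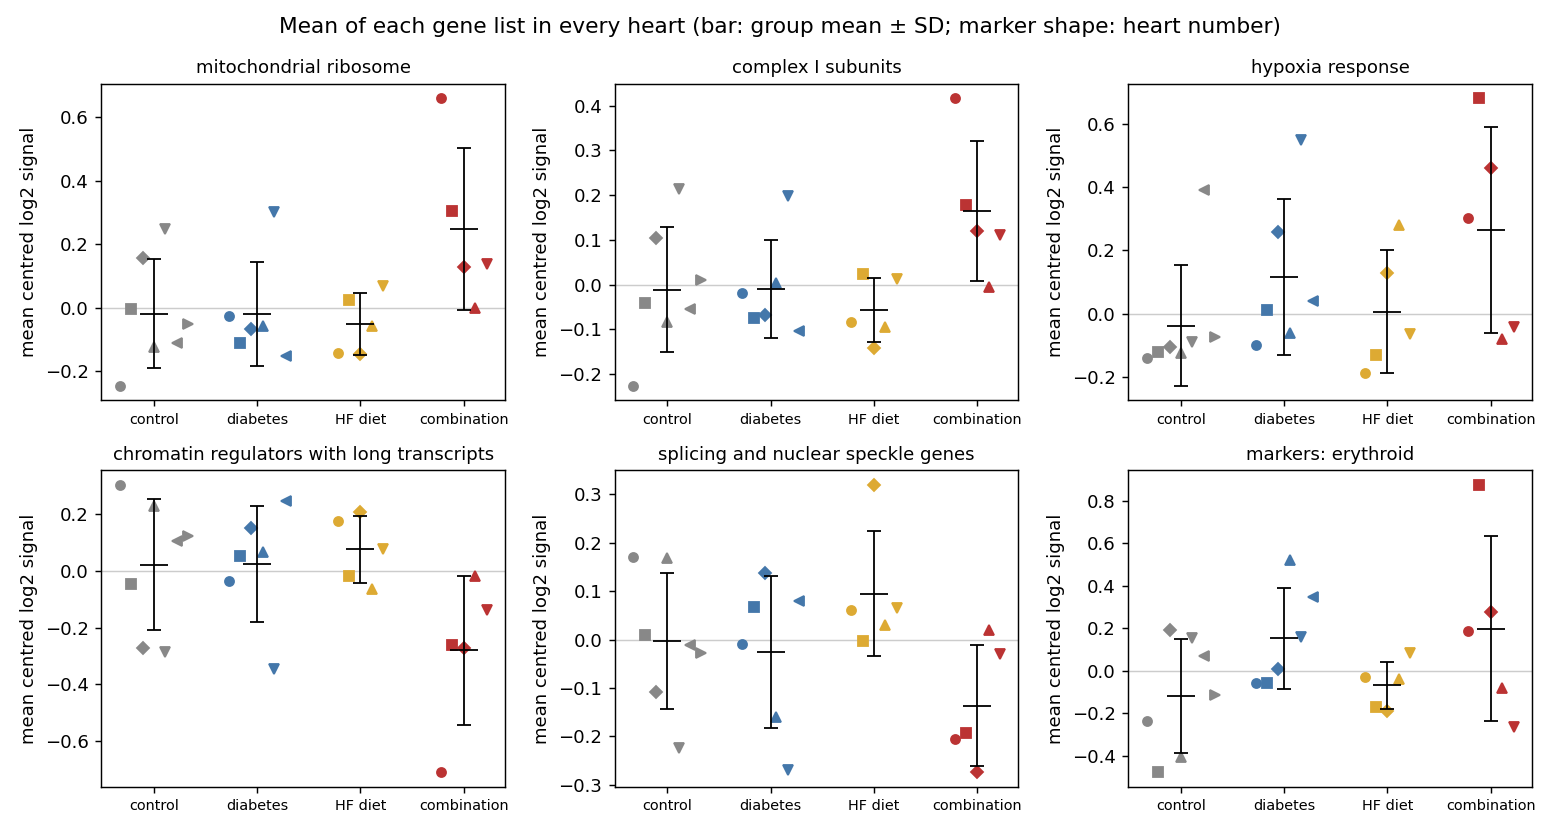
Mean centred log2 signal of 6 gene lists in every heart of the 4 groups; each point is a heart and the bar is the group mean ± SD. Combination heart 1 stands apart for the mitochondrial ribosome (0.66) and chromatin regulators (-0.71), and combination heart 2 for erythroid markers (0.88).

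The calls differed by gene span, the distance from first to last base of the gene in RefSeq, known for 14481 genes. Called higher genes had a median span of 10.1 kb and called lower genes 66.9 kb, beside 18.03 kb for all. Among genes of up to 5 kb 4.23% were higher and 0.673% lower, while among genes over 160 kb 0.797% were higher and 9.23% lower. The median difference was 0.02 in the shortest and -0.11 in the longest of these groups. Across genes, which are not independent replicates, Spearman's rho of difference with span was -0.223. Within single hearts the rho of signal with span was -0.25 in combination heart 1 and between -0.104 and -0.041 in hearts 2 to 5, against -0.036 to 0.144 in HF diet hearts. It ran from -0.074 to 0.123 in control and from -0.109 to 0.169 in diabetes exposed hearts. Without combination heart 1, 1.48% of genes over 160 kb were lower and 0.228% higher. The part of span in the gene list results was not tested.

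**Figure D5:**
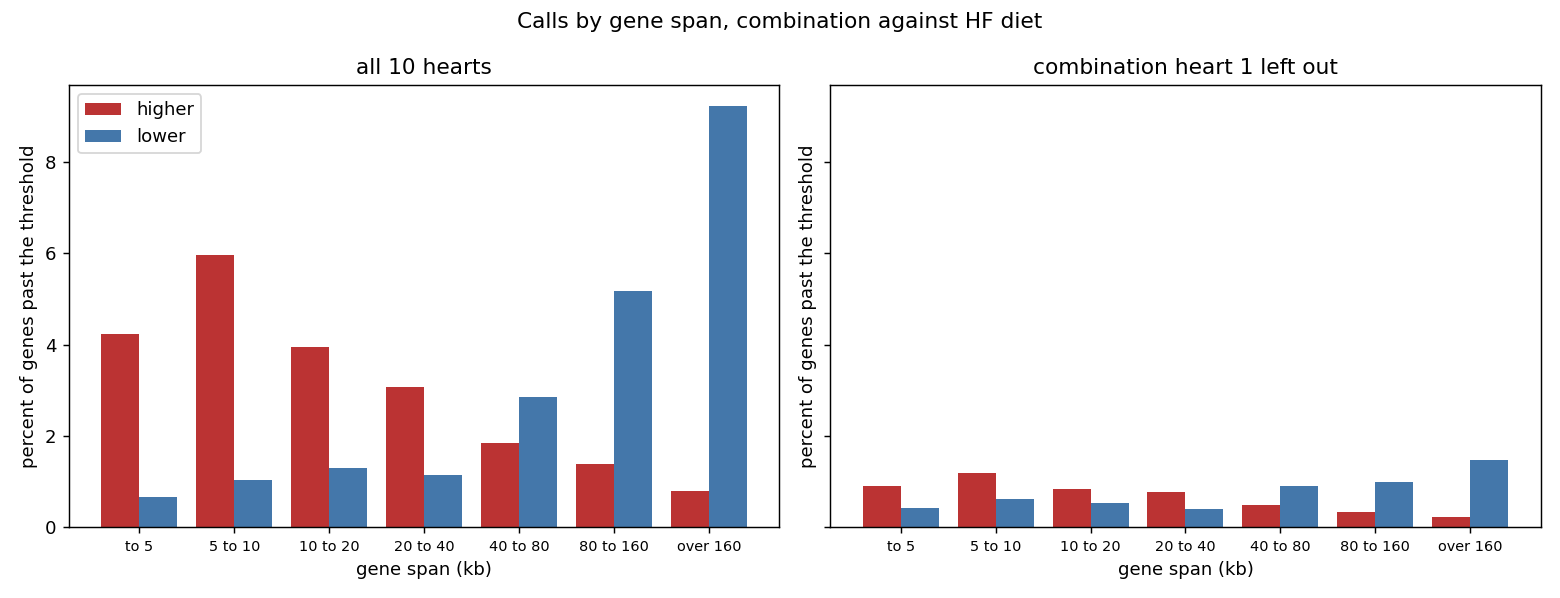
Percent of genes called higher or lower in combination against HF diet hearts by gene span in kb, with all 10 hearts and without combination heart 1. The share called lower rises to 9.23% over 160 kb with all hearts and is 1.48% without heart 1.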

How the data were processed

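RNA of 23 whole newborn rat hearts, 1 heart an array, was measured on Affymetrix Rat Gene 1.0 ST arrays. The authors averaged probe intensities per probe set and normalized them in GeneSpring GX, and deposited log2 values whose median over the 23 arrays is 0 for each probe set. The algorithm and the filter limits were not given in the sources used here, so absolute levels and scanner background are unknown, and the number of arrays limits the precision. Of 29170 probe sets 15310 had 1 gene symbol, 323 several and 13537 none, and 15279 of the 15310 matched RefSeq by gene ID. A gene with several probe sets was given by that with the lowest p.

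Groups came from the exposure labels. limma 3.58.1 (R 4.3.3) fitted 1 mean per group over 23 hearts with empirical Bayes, and adjusted p-values cover all 29170 probe sets. Errors beside differences are SE from that fit. The labels do not say that the hearts came from separate litters, and p-values then cover only heart-to-heart spread, which may be partly technical. The named genes were the 15 largest non-overlapping differences in each direction among called genes, up to 4 called members per list with the smallest p, the Meg3 locus, and genes the study followed. The comparison, gene lists and named genes were chosen with earlier results of these data known, while the hearts of each group came from the labels alone. The fit was also run on simulated data with independent noise. These had no unequal array widths and no shared stems, so that run says nothing on either. In all 23 alternatives were run. Hearts sharing a replicate number did not deviate together (correlations -0.218 to 0.0895), so the numbers were not taken as pairs.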

Additional observations from a re-analysis of the deposited data

Results flagged for a closer look

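Among the 70 groups of 5 hearts tested for a single distant heart (35 genes in 2 groups), 4 had one. Chance gives about 1 in 20, which is near this share. The genes were picked largely by values in these same hearts, so that rate is only a rough guide. Adm in HF diet heart 3 read -0.828, with the other hearts from -0.296 to -0.091. Cpne5 in the same heart read 0.473, with the others from -0.047 to 0.1. Myl1 in combination heart 1 read 1.055, with the others from 0.183 to 0.351. Ppargc1a in combination heart 1 read -0.475, with the others from -0.026 to 0.104. These are the widest arrays of their groups.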

How the results depend on the processing

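The 1679 calls past the limit changed to 627 with array weights, 617 with the erythroid mean as covariate and 812 with the methods' t-test. They were 879 after quantile normalization and 398 without the widest array of each group, an alternative chosen after seeing the data. When only the 15310 probe sets with 1 symbol were fitted, 846 passed, from fewer tested than the 29170 of the main fit. Leaving out 1 heart gave 576 (without combination heart 1) to 2995 (without combination heart 4), and 1112 without HF diet heart 3. The other alternatives gave 1376 to 1686. Among these, 1658 passed when only the 14585 probe sets with the larger spread over arrays were fitted. Higher calls were 49.3% of calls, and 61.7% among probe sets with 1 symbol. Calls at adjusted p under 0.05 were 0 in every setting run, for the comparison and for the difference between diets. With the replicate number as a block, the pairing gave 1566 calls and 0 adjusted. For 35 named genes, 762 values kept their side of the limit and direction, 39 lost the call and 4 gained it, and none changed sign. Named genes were picked largely by values in these same hearts, so these kept calls and signs are no measure of stability. Of 46 list medians, 7 changed sign in at least 1 of 14 alternatives, each of them within 0.13 of 0 in the reported fit. Array signal over background could not be assessed from centred values. The cause of these changes was not tested.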
